A study of Homo sapiens with 82 samples.

Results

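The sites described here are genomic regions of HT29 cells, a human colorectal cancer cell line. They were bound by LXRB in cells given GW3965 and by PPARG in cells given rosiglitazone, at 2 and at 48 h of each drug. The 2 receptors were thus assayed in differently treated cells, and binding of both in the same cells was not measured. Peaks of replicate 1 and replicate 2 that overlapped by at least 1 bp were merged into a site. A site of LXRB after 2 h of GW3965 was taken as a shared persistent site where it also overlapped a site of LXRB after 48 h of GW3965, a site of PPARG after 2 h of rosiglitazone and a site of PPARG after 48 h of rosiglitazone. This held for 1829 of the 3881 LXRB sites at 2 h, or 47.1%. The sites were thus chosen by the presence of LXRB and PPARG peaks, whose values are described without a test. LXRA, JunD, H3K27ac and RNAP2 were not used to choose them.

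ChIP-seq of HT29 cells was used, with 2 replicates in every group and 34 libraries in all. LXRB was assayed with its own antibody after 2 and 48 h of 10 μM GW3965, a synthetic LXR agonist, and PPARG after 2 and 48 h of 10 μM rosiglitazone, a PPARG agonist. LXRA was a FLAG-tagged transgene, carried by transfected HT29 cells under G418 selection and assayed with an antibody to the tag after 2 and 48 h of GW3965, so its level is not under the control of its own promoter. JunD was assayed only in cells given the solvent DMSO. H3K27ac and RNAP2 were assayed in DMSO and at 24 and 48 h of each drug at 10 μM. DMSO libraries carry no time in their labels and are placed at 0 h by the study, and no receptor was assayed in DMSO. HT29 is 1 cell line, and nothing in the labels says that replicates came from separate cultures, so a p-value below measures only the spread between these libraries. The track lines show 1 input library per condition behind both replicates of H3K27ac and RNAP2, so input and condition cannot be told apart.

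LXRA, LXRB and PPARG are nuclear receptors that bind DNA as partners of RXR and respond to small lipid-like ligands. LXRs are known as sensors of oxysterols that switch on cholesterol efflux and fatty acid synthesis genes, and PPARG as a sensor of fatty acids that controls lipid storage and is abundant in colonic epithelium. JunD is a subunit of AP1, a dimeric factor that responds to growth signals and often sits on enhancers. H3K27ac, acetylation of histone H3 at lysine 27, marks active enhancers and promoters, and RNAP2 is the polymerase that transcribes protein-coding genes.

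The 4 conditions of the rule divided the 3881 LXRB sites unevenly. In addition to the shared persistent sites, 943 sites had LXRB at both times and no reproducible PPARG site at either time, 579 had LXRB at both times and PPARG only at 2 h, and 259 overlapped no site of the other 3 groups. The shared persistent sites took up 20.0% of the 9218 LXRB sites at 48 h, 12.9% of the 14249 PPARG sites at 2 h and 21.9% of the 8317 PPARG sites at 48 h. The 943 persistent LXRB sites without PPARG and 4218 persistent PPARG sites without LXRB served as the comparison. "Without" refers to sites found in both replicates, and 251 of the 943 carried a PPARG peak in replicate 1 at 2 h.

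The shared persistent sites had a median width of 1153 bp, with a range of 545 to 11195 bp, against 1153 bp for persistent LXRB sites and 844 bp for persistent PPARG sites. Close to the limit of the rule, the smallest overlap was 27 bp at chr11:129871787-129874053 and 32 bp at chr4:183064766-183065649, and only these 2 sites were under 100 bp. Among the sites left out, 4 lay within 100 bp of a missing receptor site. The closest, at chr3:156805779-156807036, was 5 bp short, whereas 1761 were over 10 kb away. Coordinates are those of hg19, the build named in the submitters' processing notes, counted from 1. Genes, exons and sequence at the sites were not analysed here.

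Peaks are described by their deposited score, minus 10 times the log10 of the peak's p, and by the percentile of that score among all peaks of the same library, where 100 is the strongest peak. PPARG peaks at the shared persistent sites had median percentiles of 88.6 and 85.4 in the libraries at 2 h and 85.5 and 68.2 at 48 h. LXRB peaks there had median percentiles of 75.6 and 59.3 at 2 h and 82.5 and 84.4 at 48 h. The corresponding LXRB values at the persistent LXRB sites without PPARG were 79.5 and 77.7 at 2 h and 85.7 and 89.9 at 48 h, higher in all 4 libraries. For PPARG the persistent sites without LXRB were at 79.2 and 66.8 at 2 h and 67.4 and 51.9 at 48 h, lower in all 4 libraries. By their medians, the shared sites thus sat among the stronger PPARG peaks and the less strong of the persistent LXRB peaks, a description of the values that the rule itself used. The lower quartiles of LXRB did not all follow. In replicate 1 they were 55.8 at shared and 53.3 at persistent LXRB sites at 2 h, and 66.2 and 62.5 at 48 h. In replicate 2 they were 36.6 and 44.9 at 2 h, and 70.3 and 70.7 at 48 h.

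LXRA was found at nearly all shared persistent sites. An LXRA peak overlapped 98.6% and 96.3% of them in the 2 libraries at 2 h and 98.6% and 99.5% at 48 h. For persistent LXRB sites without PPARG the shares were 66.2% and 46.2% at 2 h and 50.9% and 67.1% at 48 h, and for persistent PPARG sites without LXRB 44.8%, 31.2%, 32.8% and 50.2%. The shared sites were above both other classes in 4 of 4 libraries, by a mean of 40.6 ± 9.6 percentage points over the LXRB class and 58.5 ± 8.2 over the PPARG class (SD, n = 4). An exact sign-flip test over 4 libraries cannot go below p = 0.125 and gave that value for both differences. Counting only sites found in both replicates, LXRA was present at 1760 shared sites at 2 h (96.2%) and 1802 at 48 h (98.5%), against 81.5% and 82.5% of all LXRB sites at 2 h. It was present at both times at 1748 sites, only at 48 h at 54, only at 2 h at 12 and at neither time at 15.

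LXRA peaks at the shared sites were also high in their own libraries. Their median percentiles were 92.9 and 88.9 at 2 h and 88.9 and 93.7 at 48 h, against 63.7 to 70.7 at persistent LXRB sites and 43.3 to 53.0 at persistent PPARG sites. By these medians, LXRA therefore ranked higher at the shared sites than at the persistent LXRB sites without PPARG, while the LXRB medians were lower at the shared sites. The LXRA libraries held between 18436 and 30953 peaks and the LXRB libraries between 4555 and 14788, so the percentiles of the 2 receptors do not refer to lists of equal length.

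JunD in DMSO-treated cells gave a larger mean difference between the shared sites and either other class than LXRA, H3K27ac or RNAP2 did. A JunD peak overlapped 85.3% and 87.8% of the shared persistent sites in the 2 libraries, 29.1% and 29.4% of the persistent LXRB sites and 16.8% and 21.1% of the persistent PPARG sites. The mean difference was 57.4 ± 1.5 percentage points against the LXRB class and 67.6 ± 1.3 against the PPARG class (SD, n = 2), and no test was run over 2 libraries. In both replicates JunD was found at 1517 shared sites, or 82.9%, where all LXRB sites at 2 h had 60.9%. Median JunD percentiles at sites with a peak were 79.6 and 82.1 at the shared sites, 75.2 and 69.9 at persistent LXRB sites, and 42.0 and 42.1 at persistent PPARG sites.

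Before any drug, most of the shared sites already carried several marks. JunD, RNAP2 and H3K27ac were all present in DMSO at 1114 of the 1829 sites (60.9%), compared with 17.4% of persistent LXRB sites, 5.0% of persistent PPARG sites and 42.4% of all LXRB sites at 2 h. A further 400 (21.9%) had JunD and RNAP2 without H3K27ac, and 213 (11.6%) had RNAP2 and H3K27ac without JunD. For these patterns the share of all LXRB sites at 2 h was not computed. None of the 3 was found at 14 shared sites (0.765%), whereas 49.5% of persistent PPARG sites and 4.66% of all LXRB sites at 2 h had none.

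**Figure D1:**
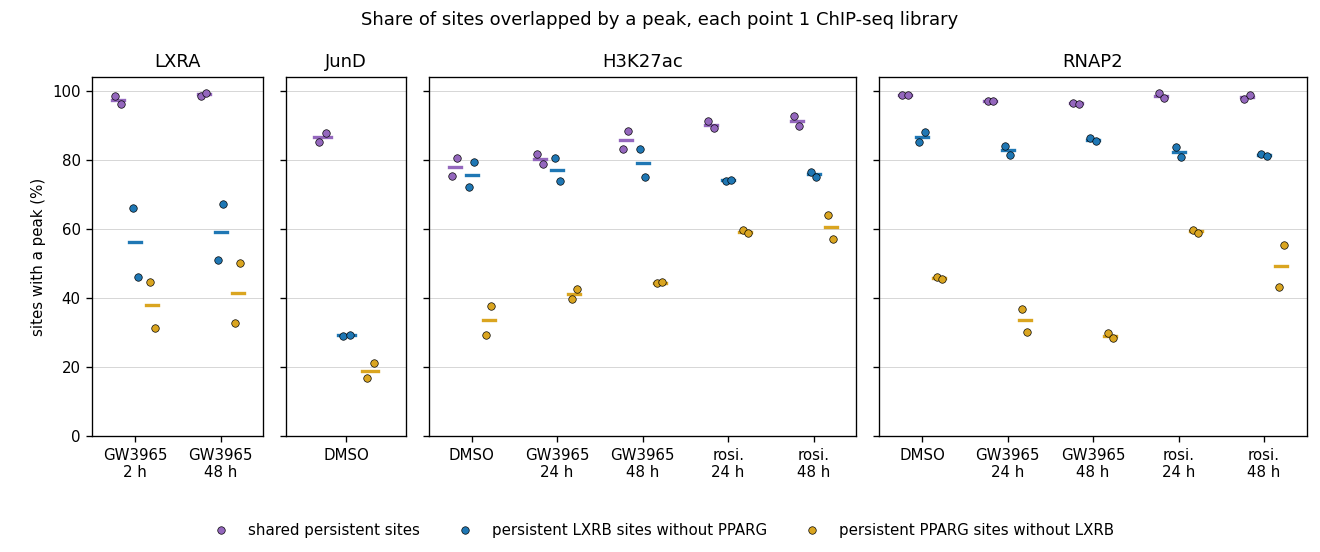
Percent of sites overlapped by a peak of LXRA, JunD, H3K27ac or RNAP2 in each of the 26 libraries that did not choose the sites. Each point is 1 library, each short horizontal line the mean of 2 replicates, and the colours are the 3 classes of sites. The shared persistent sites lie above 96% for LXRA and RNAP2 and above 85% for JunD, and their H3K27ac share runs from 75.3% in DMSO to 92.8% with rosiglitazone.

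The share of shared sites with H3K27ac varied more between treatments than that with RNAP2. A peak overlapped 75.3% and 80.6% of them in DMSO, 81.7% and 78.7% after 24 h and 83.2% and 88.6% after 48 h of GW3965, and 91.2% and 89.3% after 24 h and 92.8% and 89.8% after 48 h of rosiglitazone. All 4 rosiglitazone libraries lay above both DMSO libraries and above all 4 GW3965 libraries. The mean was 83.1% ± 4.1 with GW3965 and 90.8% ± 1.5 with rosiglitazone (SD, n = 4), a difference of -7.74 percentage points for GW3965 minus rosiglitazone (two-sided exact permutation test, p = 0.0286, the smallest that 4 against 4 libraries allow, and 0.0343 with Benjamini-Hochberg adjustment over 12 tests). Within 24 h the means were 80.2% ± 2.1 and 90.3% ± 1.3, and within 48 h 85.9% ± 3.8 and 91.3% ± 2.1 (SD, n = 2 each), without overlap of the libraries at either time. H3K27ac libraries held 26524 to 31824 peaks with GW3965 and 26705 to 28561 with rosiglitazone, so the ranges overlapped.

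The rosiglitazone difference was not shared by the persistent LXRB sites without PPARG. There H3K27ac overlapped 72.1% and 79.3% of the sites in DMSO and 73.9% to 83.4% with GW3965. With rosiglitazone it overlapped 74.0% to 76.7%, a range that lies within that of GW3965. Shared minus persistent LXRB sites was 4.84 ± 6.1 percentage points with GW3965 and 15.8 ± 1.1 with rosiglitazone (SD, n = 4), and these differed by 10.9 percentage points (two-sided exact permutation test over the 8 libraries, added after seeing the data, p = 0.0286, adjusted 0.0343). With peak scores of at least 200 this difference was 7.27 and the same exact test gave p = 0.229. The persistent PPARG sites without LXRB started lower, at 29.3% and 37.8% in DMSO, and reached 57.0% to 64.0% with rosiglitazone. The distance between shared and PPARG sites was 40.2 ± 3.4 percentage points with GW3965 and 30.9 ± 1.7 with rosiglitazone, a change of -9.30 (same exact permutation test, p = 0.0286, adjusted 0.0343). Over all 10 libraries the shared sites exceeded the LXRB class by a mean of 8.70 ± 7.2 percentage points, with 9 of 10 libraries above 0 (two-sided exact sign-flip test, p = 0.00391, adjusted 0.0117). They exceeded the PPARG class by 37.3 ± 6.2, with 10 of 10 above 0 (p = 0.00195 by the same exact test, the smallest it allows, adjusted 0.00781). The 10 libraries are 2 replicates of 5 conditions, and the difference from the LXRB class gave p = 0.0508 (exact sign-flip test) when PPARG replicate 2 at 48 h was left out in choosing the sites.

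At the level of single sites, 1333 shared persistent sites (72.9%) had an H3K27ac site in DMSO, against 69.4% of all LXRB sites at 2 h, and 496 had none. In treated cells the numbers were 1316 (72.0% against 68.8%) and 1496 (81.8% against 76.7%) with GW3965 at 24 and 48 h, and 1612 (88.1% against 79.2%) and 1627 (89.0% against 80.0%) with rosiglitazone. With GW3965 at 24 h, 115 of the 496 had gained an H3K27ac site, which is 6.29% of the shared sites against 6.39% of all LXRB sites at 2 h. After 48 h of GW3965 it was 214 (11.7% against 11.2%). With rosiglitazone 302 had gained the mark at 24 h (16.5% against 13.0%) and 310 at 48 h (16.9% against 12.9%). As shares of all sites, the GW3965 gains were thus close to the background, and the rosiglitazone gains were above it. Among only the sites without the mark in DMSO, GW3965 gains were 23.2% of the shared sites at 24 h and 43.1% at 48 h. The background on that base was 20.9% and 36.5%. With rosiglitazone the gains on that base were 60.9% and 62.5%, against 42.5% and 42.2%. Losses were 132 sites after 24 h of GW3965 (7.22% against 6.93%), 51 after 48 h (2.79% against 3.89%), 23 after 24 h of rosiglitazone (1.26% against 3.14%) and 16 after 48 h (0.875% against 2.27%).

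These gains recurred between time points. H3K27ac was absent in DMSO and present at both times of rosiglitazone at 260 shared sites (14.2%), compared with 10.7% of all LXRB sites at 2 h, 4.56% of persistent LXRB sites and 22.7% of persistent PPARG sites. For GW3965 the number was 97 (5.30%), with 5.18% of all LXRB sites at 2 h. Both times of both drugs showed the mark at 81 of the sites without it in DMSO (4.43% of the shared sites, against 3.63% of all LXRB sites at 2 h). Another 89 had it at both rosiglitazone times and at no GW3965 time (4.87% against 3.71%), and 8 had the reverse (0.437% against 0.979%). At 1168 sites (63.9% against 58.7%) H3K27ac was present in all 5 conditions, and at 118 (6.45% against 12.01%) in none. Many of the sites without H3K27ac in DMSO had a peak in 1 of the 2 DMSO libraries. Where no peak was allowed in either, the gains with GW3965 were 32 and 86 sites at 24 and 48 h (1.75% and 4.70%, against 2.09% and 4.82% of all LXRB sites at 2 h), and those with rosiglitazone were 138 and 141 (7.55% and 7.71%, against 6.0% and 5.75%).

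**Figure D2:**
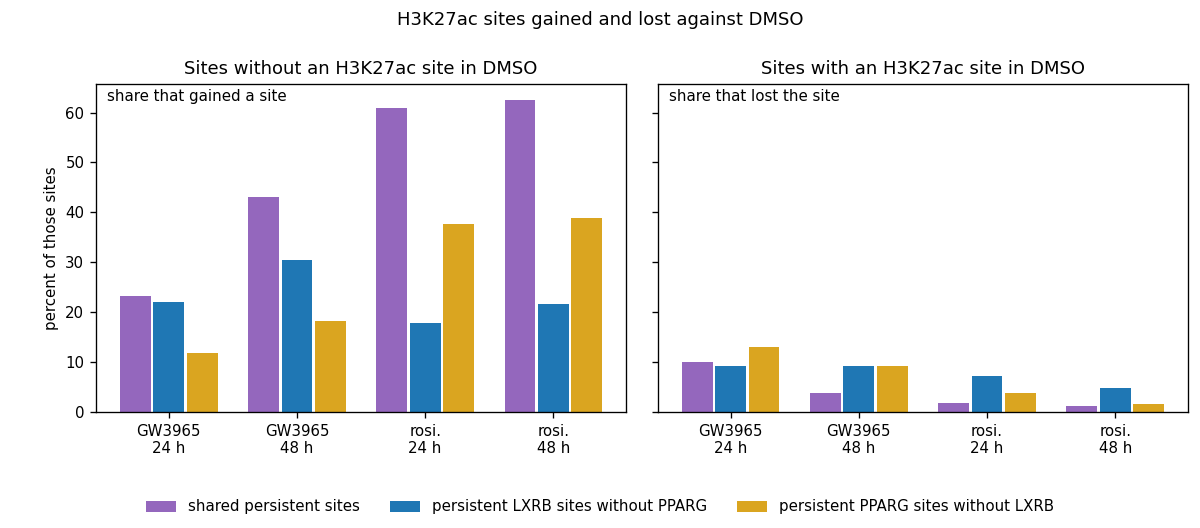
Percent of sites without an H3K27ac site in DMSO that had one after treatment (left), and percent of sites with one in DMSO that had none after treatment (right), for the 3 classes of sites and the 4 treatments. Of the 496 shared sites without the mark, 23.2% and 43.1% gained it with GW3965 at 24 and 48 h and 60.9% and 62.5% with rosiglitazone. Among all LXRB sites at 2 h without the mark, not drawn here, these shares were 20.9%, 36.5%, 42.5% and 42.2%.

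The strength of H3K27ac at the shared sites followed a similar order. The median percentile of the H3K27ac peak was 67.6 and 65.2 in DMSO, 68.8 and 80.4 after 24 h of GW3965, 76.9 and 85.0 after 48 h of GW3965, 84.4 and 83.9 after 24 h of rosiglitazone and 86.0 and 85.9 after 48 h. The 4 rosiglitazone libraries lay close together and above both DMSO libraries, and the GW3965 replicates of 1 time were farther apart. At persistent LXRB sites the median was 73.7 and 79.4 in DMSO and between 73.9 and 75.7 with rosiglitazone. H3K27ac was thus weaker at the shared sites than at the LXRB sites in DMSO and stronger there with rosiglitazone. The persistent PPARG sites ranked lower, with medians of 48.1 and 46.7 in DMSO, and also rose, to between 55.1 and 58.3 with rosiglitazone.

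A count over single sites gives the same picture without a median. Of the 1301 shared sites with an H3K27ac peak in both DMSO libraries and both libraries of 48 h rosiglitazone, 802 (61.6%) had both treated percentiles above both DMSO percentiles and 64 (4.92%) had both below. Among all LXRB sites at 2 h the shares were 45.3% and 15.3%. After 24 h of rosiglitazone 59.4% of the shared sites were above (background 43.7%) and 6.72% below (17.5%), and after 48 h of GW3965 47.3% were above (39.0%) and 4.68% below (10.3%). At 24 h of GW3965 the counts were closer, at 23.4% above (19.1%) and 9.27% below (13.2%). At persistent LXRB sites the direction was the other way with rosiglitazone, with 18.5% above and 34.5% below at 48 h. Persistent PPARG sites resembled the shared sites, with 54.8% above and 11.6% below after 24 h of rosiglitazone, and 59.4% and 9.11% after 48 h. With GW3965 26.8% of them were above and 10.0% below at 24 h, and 46.8% and 8.26% at 48 h. A higher H3K27ac rank was thus not particular to the shared sites. All comparisons with a treatment share the same 2 DMSO libraries.

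RNAP2 was present at nearly all shared sites in every condition. A peak overlapped 99.0% of them in both DMSO libraries, 97.2% in both libraries of 24 h GW3965, 96.5% and 96.3% at 48 h of GW3965, 99.6% and 97.9% at 24 h of rosiglitazone, and 97.6% and 98.9% at 48 h. The share was 96.8% ± 0.5 with GW3965 and 98.5% ± 0.9 with rosiglitazone (SD, n = 4), a difference of -1.67 percentage points (two-sided exact permutation test, p = 0.0286, adjusted 0.0343). With peak scores of at least 200 this difference was -0.638 and p was 0.543 by the same exact test. Leaving out replicate 1 of LXRB at 48 h or replicate 2 of PPARG at 48 h in choosing the sites gave -1.63 and -1.52, with exact permutation p = 0.0857 and 0.114. RNAP2 libraries held 27249 to 32831 peaks with GW3965 and 29289 to 35934 with rosiglitazone, and the part of peak number in the difference was not tested. In both replicates RNAP2 was found at 1806 of the 1829 sites in DMSO (98.7%, against 93.3% of all LXRB sites at 2 h) and in all 5 conditions at 1658 (90.7% against 76.4%). After treatment it was found at 1749 (95.6% against 88.5%) and 1739 (95.1% against 87.6%) with GW3965 at 24 and 48 h, and at 1788 (97.8% against 88.9%) and 1778 (97.2% against 85.1%) with rosiglitazone. Relative to DMSO, RNAP2 was lost at 64 and 76 shared sites with GW3965 and at 31 and 37 with rosiglitazone, where the losses among all LXRB sites at 2 h were 6.06%, 7.55%, 5.67% and 9.04%. As a share of the 1829 sites these losses were 3.50%, 4.16%, 1.69% and 2.02%, below the background in each comparison. RNAP2 was gained at 7, 9, 13 and 9 of the 23 sites without it in DMSO. Of the 1829 sites this was 0.383%, 0.492%, 0.711% and 0.492%, against 1.26%, 1.80%, 1.29% and 0.825% of all LXRB sites at 2 h. Of the sites without RNAP2 in DMSO it was 30.4%, 39.1%, 56.5% and 39.1%, against 18.8%, 26.9%, 19.2% and 12.3%.

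Compared with the other classes, the shared sites carried an RNAP2 peak more often in every library. They exceeded the persistent LXRB sites by a mean of 14.1 ± 2.8 percentage points and the persistent PPARG sites by 54.5 ± 11, each with 10 of 10 libraries above 0 (SD, n = 10, two-sided exact sign-flip test, p = 0.00195, adjusted 0.00781). The PPARG class carried RNAP2 at 45.9% ± 0.5 of its sites in DMSO (SD, n = 2), 31.3% ± 3.8 with GW3965 and 54.3% ± 7.6 with rosiglitazone (SD, n = 4). Because of this, shared minus PPARG sites was 65.5 ± 3.5 percentage points with GW3965 and 44.1 ± 7.1 with rosiglitazone, which differed by -21.4 for rosiglitazone minus GW3965 (exact permutation test, p = 0.0286, adjusted 0.0343).

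While RNAP2 stayed at the shared sites, its peaks there ranked lower after 48 h of GW3965. The median percentile was 89.3 and 85.9 in DMSO, 86.9 and 77.0 after 24 h of GW3965, and 68.7 and 70.7 after 48 h of GW3965. The rosiglitazone libraries gave 86.5 and 91.1 after 24 h, and 74.0 and 89.5 after 48 h. Both libraries of 48 h GW3965 were below all others, and replicate 1 of 48 h rosiglitazone stood nearer to them than to its own replicate. At persistent LXRB sites the 2 libraries of 48 h GW3965 had 81.3 and 80.4, inside the DMSO range of 80.8 to 82.4 for the first and just under it for the second. At persistent PPARG sites they had 34.5 and 35.0, under the 43.9 and 41.7 of DMSO.

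Site by site, 1419 of the 1729 shared sites with an RNAP2 peak in the 4 libraries (82.1%) had both percentiles of 48 h GW3965 below both of DMSO, and 96 (5.55%) had both above. Among all LXRB sites at 2 h the shares were 69.0% and 10.2%, among persistent LXRB sites 39.8% and 23.0%, and among persistent PPARG sites 48.9% and 15.8%. At 24 h of GW3965 38.9% were below (background 37.3%) and 6.21% above (6.30%), which is close to the background. After 24 h of rosiglitazone 21.0% were below (27.1%) and 24.2% above (19.1%), and after 48 h 25.7% were below (28.7%) and 10.2% above (9.30%).

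**Figure D3:**
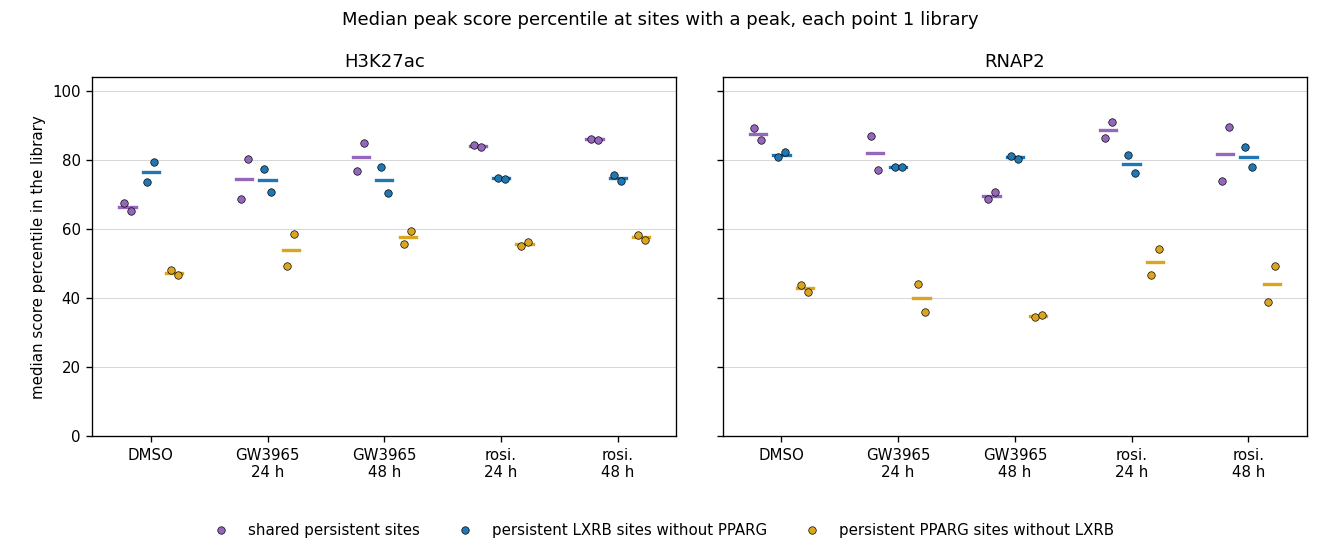
Median score percentile of the H3K27ac peak (left) and the RNAP2 peak (right) at sites with a peak, for 3 classes of sites in 10 libraries each. Points are libraries and short horizontal lines are means of 2 replicates. At the shared persistent sites H3K27ac is lowest in DMSO (67.6 and 65.2) and RNAP2 is lowest after 48 h of GW3965 (68.7 and 70.7).

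**Figure D4:**
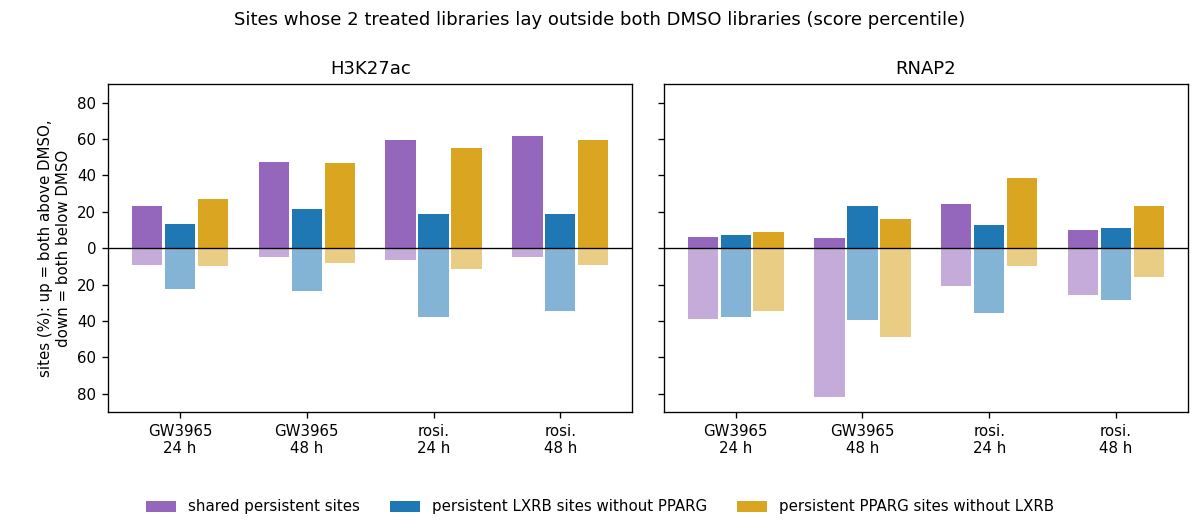
Percent of sites whose 2 treated libraries both ranked above (bars up) or both below (bars down) the 2 DMSO libraries, among sites with a peak in all 4. For RNAP2 after 48 h of GW3965 the bar below 0 reaches 82.1% at the shared persistent sites and 39.8% at persistent LXRB sites without PPARG.

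H3K27ac and RNAP2 ranked in opposite directions relative to DMSO at many shared sites after 48 h of GW3965. Of the 1229 with peaks of both marks in all 8 libraries concerned, 442 (36%) had H3K27ac above and RNAP2 below both DMSO libraries, 49 had both marks above and 49 had both below (3.99% each, against 4.67% and 6.11% of all LXRB sites at 2 h). The share with H3K27ac above and RNAP2 below was 26.1% among all LXRB sites at 2 h, 7.46% among persistent LXRB sites and 17.5% among persistent PPARG sites. After 24 h of GW3965 the pattern was seen at 5.77% of the shared sites (background 4.46%), after 24 h of rosiglitazone at 7.16% (5.70%) and after 48 h at 10.1% (7.31%). With rosiglitazone at 24 h the most frequent pattern was both marks above DMSO, at 217 sites (17.1%), against 11.9% of all LXRB sites at 2 h, 5.45% of persistent LXRB sites and 27.6% of persistent PPARG sites.

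A fit across all sites of a mark showed the same directions with few single calls. limma was run on quantile-normalised log2 scores of sites with a peak in all 10 libraries of the mark. For H3K27ac these were 13455 sites and held 1203 of the 1829 shared sites (65.8%), and for RNAP2 12265 sites and 1665 shared sites. The median log2 difference from DMSO in H3K27ac score at the shared sites was 0.14 and 0.46 with GW3965 and 0.62 and 0.71 with rosiglitazone at 24 and 48 h. Over all sites it was between -0.08 and -0.03, and at persistent LXRB sites between -0.26 and -0.17. At persistent PPARG sites it was 0.22 and 0.41 with GW3965 and 0.46 and 0.60 with rosiglitazone, so the shared sites were not alone in this. For RNAP2 score the medians at the shared sites were -0.10 and -0.78 with GW3965 and 0.03 and -0.21 with rosiglitazone. After 48 h of GW3965 the median was 0.03 over all sites, -0.02 at persistent LXRB sites and -0.16 at persistent PPARG sites. Of the mark sites at shared sites 80.7% were above 0 for H3K27ac after 48 h of rosiglitazone, against 45.6% of all mark sites, and 12.3% were above 0 for RNAP2 after 48 h of GW3965, against 51.3%. At persistent PPARG sites these shares were 73.8% and 42.6%.

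At an adjusted p under 0.05 (limma, Benjamini-Hochberg over all sites of the mark), H3K27ac was higher at 2 mark sites, which hold 5 shared sites, after 48 h of GW3965, where 0.0297% of all mark sites were called higher. After 48 h of rosiglitazone it was higher at 5 mark sites, which hold 8 shared sites (0.0743% of all mark sites). RNAP2 was lower at 2 mark sites, which hold 3 shared sites, after 48 h of GW3965 (0.0245% of all mark sites). At shared sites limma called 0 in the other 5 comparisons. Among all mark sites 1 was called for RNAP2 after 24 h of each drug, away from the shared sites. At an unadjusted p under 0.05, in either direction, H3K27ac differed at 157 and 260 shared sites with GW3965 and 375 and 392 with rosiglitazone, at 24 and 48 h. As a share of the mark sites at shared sites these were 13.2%, 22.4%, 31.8% and 33.0%, against 9.31%, 22.5%, 19.2% and 20.6% of all mark sites. For RNAP2 the numbers were 150, 573, 155 and 163 shared sites in the same order, or 8.93%, 34.7%, 9.43% and 9.86% of the mark sites there, against 9.16%, 22.1%, 11.04% and 11.1% of all mark sites. With median centring in place of quantile normalisation no shared site was called in any comparison, and the replicate block also left 0 for H3K27ac. Leaving out 1 library moved the H3K27ac counts at 48 h and the RNAP2 count after 48 h of GW3965 both down and up. The group of that library then held only 1 library, so the counts are not given as results.

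The few called sites are extremes that passed the threshold. Their log2 differences in score were larger in size than the medians at the shared sites, so they do not show the typical change. At the H3K27ac site chr1:68278796-68286834, which holds 2 shared sites, the score was 277 and 534 in DMSO, 2613 and 2082 after 24 h and 2608 and 1734 after 48 h of GW3965, and 1926 and 2437 after 24 h and 2553 and 2734 after 48 h of rosiglitazone. All 8 treated libraries were above both DMSO libraries. The log2 difference was 2.44 ± 0.30 (SE) after 48 h of GW3965 and 2.30 ± 0.30 after 48 h of rosiglitazone (limma adjusted p = 0.0469 and 0.0490). The site chr1:59345515-59353932 holds 3 shared sites, and its score was 465 and 795 in DMSO and 3100 in both libraries of 48 h rosiglitazone, where 3100 is a value that the strongest peaks share and is close to the ceiling of the score. It was called in the same 2 comparisons, with log2 differences of 2.05 ± 0.26 and 1.97 ± 0.26 (SE).

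The site chr12:104979175-104987320 scored higher with rosiglitazone than with GW3965 in every library. Its H3K27ac score was 113 and 146 in DMSO, 564 and 480 after 24 h and 519 and 523 after 48 h of GW3965, 1492 and 1363 after 24 h and 1436 and 2049 after 48 h of rosiglitazone. The 3 groups did not overlap, and the log2 difference after 48 h of rosiglitazone was 3.37 ± 0.47 (SE, limma adjusted p = 0.0490). The sites chr10:114141488-114152111 and chr10:112531029-112537987 were also called after 48 h of rosiglitazone, with log2 differences of 2.30 ± 0.32 and 1.74 ± 0.24 (SE, limma adjusted p = 0.0490). Their scores after 48 h of rosiglitazone were 3100 in both libraries at the first and 3078 and 3100 at the second, so the ceiling of the score limits the size of these differences, as it does at chr1:59345515-59353932.

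For RNAP2, the site chr1:94786840-94794349 holds 2 shared sites and had scores of 2859 and 3148 in DMSO, 988 and 1557 after 24 h and 602 and 717 after 48 h of GW3965, 2625 and 3100 after 24 h and 2638 and 2403 after 48 h of rosiglitazone. The GW3965 libraries were below all others, and the log2 difference at 48 h was -2.40 ± 0.28 (SE, limma adjusted p = 0.0240). At chr16:4991905-4996844 the scores were 1720 and 2994 in DMSO and 898 and 564 after 48 h of GW3965, with a log2 difference of -2.03 ± 0.24 (SE, limma adjusted p = 0.0240). Here the 24 h GW3965 scores of 1115 and 1560 lay between these groups.

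The 10 shared sites with the strongest receptor binding were those whose lowest percentile over the LXRB and PPARG libraries was highest. First was chr19:50268526-50270255, with an LXRB score of 3100 in all 4 libraries and PPARG scores of 3100, 2874, 3100 and 3100. It had no JunD peak, and an LXRA peak in only 1 of 4 libraries, with a score of 171. RNAP2 was nevertheless present, with scores of 1422 and 1499 in DMSO. The site chr12:7124965-7126814 likewise had no JunD peak, but its LXRA scores were 3100 and 3047 at 2 h and 2556 and 3100 at 48 h. At both of these sites strong receptor binding thus occurred without JunD. Only at chr19:50268526-50270255 did it occur with LXRA in no more than 1 of 4 libraries.

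The other 8 of these sites carried LXRA in all 4 libraries and JunD in both, among them chr17:57919825-57924619, chr20:30191518-30197109 and chr18:3602485-3606685, where JunD scored 3100 in both libraries and RNAP2 3100 in all 10. The remaining sites of this group were chr2:169066533-169068804, chr10:73857203-73859192, chr20:30283107-30284641, chr1:218878700-218880333 and chr9:110517210-110518335. At chr1:218878700-218880333 the RNAP2 score was 2113 and 2234 in DMSO, 742 and 785 after 48 h of GW3965 and 967 and 2121 after 48 h of rosiglitazone, the pattern of the medians above. At chr9:110517210-110518335 the H3K27ac score was 266 and 705 in DMSO, 1026 and 899 after 48 h of GW3965 and 2023 and 2583 after 48 h of rosiglitazone, with no overlap between the 3 groups. The widest shared site was chr11:65188178-65199372, with 11195 bp and scores of 3100 for JunD in both libraries and for RNAP2 in all 10.

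Peaks of the factors were centred near the midpoints of the shared sites, where overlap of the PPARG sites was required by the rule. The median distance between the midpoint of the peak and the midpoint of the site was 49.5 to 60.0 bp for LXRA, 57.0 to 68.5 bp for PPARG, 56.0 and 63.0 bp for JunD and 60.0 to 137.5 bp for RNAP2. For H3K27ac, which covers flanking nucleosomes in broad peaks, it was 333.5 to 457.5 bp. At persistent PPARG sites the distance was 48.0 to 53.5 bp for LXRA and 57.25 and 52.0 bp for JunD, so closeness was not particular to the shared sites. At persistent LXRB sites it was larger, at 77.5 to 91.0 bp for LXRA and 200.5 and 138.5 bp for JunD. Shared sites were partly clustered, as 329 of them (18.0%) lay in 154 groups with gaps of at most 10 kb. The group with the most members held 4, at chr1:8254237-8272823.

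Within the shared sites, RNAP2 ranked higher at the 1517 with JunD than at the 312 without it in all 10 libraries. Median RNAP2 percentiles in DMSO were 91.1 and 87.7 with JunD and 73.0 and 72.7 without it. After 48 h of GW3965 they were 69.1 and 71.4 with JunD and 64.2 and 65.4 without it, so the distance between the groups was smaller. For H3K27ac the order depended on the treatment. Its medians in DMSO were 69.3 and 65.3 with JunD and 62.5 and 65.0 without it, and with rosiglitazone they were 85.0 to 87.3 with JunD and 75.7 to 80.4 without it. With GW3965 the medians with JunD were lower in 3 of 4 libraries, at 67.6 and 80.3 after 24 h and 75.7 and 85.6 after 48 h, against 74.3, 80.6, 81.5 and 81.9 without it. LXRB percentiles were higher with JunD in all 4 libraries, at 76.7 and 61.4 after 2 h and 83.5 and 85.7 after 48 h, against 68.7, 51.0, 74.0 and 77.7 without it. PPARG percentiles at 2 h were 88.4 and 85.7 with JunD and 88.7 and 84.6 without it, and at 48 h 86.5 and 69.1 with JunD and 80.6 and 63.0 without it. These are descriptions of classes of sites, and the split by JunD was not tested.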

How the data were processed

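ChIP-seq peaks of HT29 cells were analysed in 34 libraries, with 2 replicates per group. Per the labels, reads came from single-end runs. The authors used MACS to find peaks in each library against an input. The submitters' processing notes name Bowtie, MACS and hg19, with no versions. The deposited score of a peak, as the authors' MACS files give it, is the negative log10 of the peak's p multiplied by 10, and it was 100 or more in every library, with a maximum of 3233. Replicates had not been joined in these peak lists. Read depth was not used here, so what counts as a peak depends on depths that are unknown.

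Sites were built in Python 3.11.15 with numpy 2.4.6, pandas 2.3.3 and scipy 1.17.1, and plots with matplotlib 3.10.9. Shares of sites with a peak were compared by exact sign-flip tests over libraries or exact permutation tests of 4 against 4, two-sided, with Benjamini-Hochberg adjustment over 12 tests. The Wilson 95% interval of a share in 1 library was at most 3.95 percentage points wide for the shared sites, 6.37 for the LXRB class and 3.02 for the PPARG class, and covers counting error only. Scores were fitted with limma 3.58.1 in R 4.3.3 (eBayes with trend), with 1 mean per condition, and called at an adjusted p under 0.05. The fit was tested on simulated data.

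The members and the lists were chosen with earlier results of these data known. Sites named are the 10 with the highest lowest percentile over the 8 receptor libraries, those with the 2 largest and 2 smallest overlaps of the receptors, and up to 5 called per direction and comparison. 1 site chosen by this rule is not reported here. Alternatives covered overlap, score limit, width, normalisation, missing peaks, a replicate block and single libraries left out. The RNA-seq counts and gene annotation were not used here, because no hg19 annotation was used to place genes beside sites, and the label of the line was therefore not checked against expressed markers.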

Additional observations from a re-analysis of the deposited data

Results flagged for a closer look

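In 4 cases the difference between shared persistent sites and another class of sites was not the same with rosiglitazone as with GW3965, by a two-sided exact permutation test of 4 against 4 libraries (p = 0.0286 in each case, the smallest it allows). For H3K27ac, the excess of shared sites over persistent LXRB sites without PPARG was 10.9 percentage points larger with rosiglitazone, and the excess over persistent PPARG sites without LXRB was smaller, at -9.30. For RNAP2, the excess over persistent LXRB sites was 4.19 larger with rosiglitazone, and the excess over persistent PPARG sites differed by -21.4. The difference of 4.19 no longer had p under 0.05 with a window of 200 bp at the centre of each site (4.27, exact permutation p = 0.0571), with scores of at least 200 (4.27, p = 0.314), or when 1 of 5 receptor libraries was left out in choosing the sites. Without replicate 2 of LXRB at 2 h it was 4.38 (exact permutation p = 0.0571), without replicate 1 or 2 of PPARG at 2 h 4.17 and 4.73 (p = 0.0857 in each exact permutation test), and without replicate 1 or 2 of PPARG at 48 h 4.02 and 5.35 (exact permutation p = 0.0857 and 0.0571). These tests were chosen after the data had been seen, and with 2 replicates per group no single group could be examined for an outlying library.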

How the results depend on the processing

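No difference in the share of sites with a peak changed its sign under any alternative run. The direction of limma calls and the order of the counts above and below DMSO were not compared in this way. For RNAP2 after 24 h of rosiglitazone, the ranges above and below DMSO overlapped when single receptor libraries were left out. With peak scores of at least 200 there were 549 shared sites, and the JunD differences were 64.5 and 66.3 percentage points from the LXRB and PPARG classes. The same limit gave, for the share under a peak, GW3965 minus rosiglitazone, -0.638 for RNAP2 (p = 0.543), and for the change of the excess over LXRB sites 7.27 for H3K27ac (p = 0.229) and 4.27 for RNAP2 (p = 0.314), all by exact permutation tests. It also gave 43.2% of sites with H3K27ac above DMSO after 48 h of GW3965, RNAP2 below DMSO at 36.3% after 24 h of GW3965 and at 24.7% and 32.8% after 24 and 48 h of rosiglitazone, and H3K27ac gains of 7.83%, 14.2%, 19.7% and 19.9%. Gains with no peak in either DMSO library were 1.75%, 4.70%, 7.55% and 7.71%. A window of 200 bp at the centre of each site gave -1.86 for RNAP2, GW3965 minus rosiglitazone (exact permutation p = 0.0857), and 4.27 for its change of the excess over LXRB sites (p = 0.0571, same exact test).

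Replicate numbers did not pair the libraries in a consistent way (correlations of deviations from -0.44 to 0.58 for H3K27ac and -0.55 to 0.65 for RNAP2). Replicates of some groups thus deviated together and those of others in opposite directions. A batch shared by libraries of different groups was not tested. With the replicate block the drug differences were -7.74 and -1.67, each at p = 0.125 by the exact test, which can go no lower over 4 pairs, and limma called 0 and 0 shared sites for H3K27ac after 48 h of GW3965 and of rosiglitazone and 2 for RNAP2 after 48 h of GW3965. Median centring gave 0 in each of these 3 comparisons. Missing peaks set at the lowest score gave 14, 75 and 78 H3K27ac calls (48 h GW3965, 24 and 48 h rosiglitazone) and 50 and 3 RNAP2 calls (48 h GW3965, 24 h rosiglitazone). These are shared sites called in either direction. The share of all mark sites called under this setting was not set beside them, so they are not a result about the shared sites.

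Leaving out 1 library gave 1823 to 2520 shared sites, the highest without replicate 2 of LXRB at 2 h. The excess of shared sites over LXRB and PPARG sites ran from 6.09 to 9.68 and 36.1 to 40.8 percentage points for H3K27ac, 11.7 to 17.4 and 53.0 to 59.7 for RNAP2, 34.1 to 50.5 and 55.2 to 63.5 for LXRA, and 47.7 to 64.0 and 63.7 to 69.7 for JunD. GW3965 minus rosiglitazone ran from -9.58 to -6.30 for H3K27ac and -2.64 to -1.31 for RNAP2, where 3 against 4 libraries of a mark cannot go below p = 0.0571 in the exact test. The RNAP2 difference also missed 0.05 with all 8 libraries when replicate 1 of LXRB or replicate 2 of PPARG at 48 h was left out in choosing the sites (exact permutation p = 0.0857 and 0.114). The changes of the excess ran from 9.28 to 13.8 and -10.7 to -7.69 for H3K27ac and 3.41 to 5.35 and -24.8 to -19.6 for RNAP2. Counts of limma calls ran from 0 to 32, 99, 55 and 128 for H3K27ac and from 0 to 3, 7, 13 and 1 for RNAP2, in the order GW3965 24 and 48 h, rosiglitazone 24 and 48 h. Sites with H3K27ac above DMSO ran from 22.3% to 23.8%, 46.1% to 48.0%, 54.7% to 59.7% and 57.3% to 61.8%, with RNAP2 below from 38.6% to 40.1%, 79.8% to 82.5%, 19.6% to 24.4% and 25.4% to 28.1%, with RNAP2 above from 5.91% to 6.26%, 5.20% to 5.93%, 21.8% to 26.0% and 9.0% to 11.2%, and H3K27ac gains from 6.25% to 6.67%, 11.6% to 12.0%, 15.9% to 17.3% and 16.1% to 17.7%, in the same order. The cause of these shifts was not tested. The tests of the excess between drugs, the gains and the counts outside DMSO were added after the data had been seen. RNA results were not run. Many of the strongest peaks share the score 3100, so differences among them cannot be seen.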
